A study of Arabidopsis thaliana with 11 samples.

Results

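The CENH3 peaks of chromosome 5 were the 676 peaks whose deposited chromosome was Chr5, of 1981 peaks on chromosomes 1 to 5 in 6 lists. CENH3 is the variant of histone H3 that marks the centromere, the site where spindle fibres attach when chromosomes separate. It stands in for ordinary H3 in a part of the centromeric nucleosomes, and it recruits the proteins of the kinetochore. In Arabidopsis thaliana the centromeres are built on long arrays of a short satellite repeat, interrupted and flanked by retrotransposons, and a reference genome holds only a part of these arrays. The repeats under the peaks are not named, as the genome's sequence was not used.

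The lists came from chromatin immunoprecipitation and sequencing (ChIP-seq) of 7 to 10 day old seedlings of ecotype Columbia, grown in liquid MS medium. ZmCENH3 seedlings were cenh3-1/cenh3-1 mutants that carried the CENH3 of Zea mays. LoCENH3 seedlings were cenh3-1/cenh3-1 mutants that carried the CENH3 of Lepidium oleraceum, a relative in the cabbage family. AtCENH3 seedlings were wild type, with the plant's own protein. Each variant was precipitated with an antibody to that variant from nuclei treated with micrococcal nuclease, which cuts the DNA between nucleosomes, so antibody and variant cannot be told apart. The mutant background was shared by ZmCENH3 and LoCENH3 and was absent from AtCENH3. Each variant had 2 libraries, and the labels do not say whether they came from separate cultures, so a p-value measures only the spread between these libraries, which may be technical. With 2 libraries against 2, the smallest p of the exact two-sided permutation test was 0.333, and no difference could pass a threshold of 0.05. The other 5 samples of the series, antibody controls and inputs, are not analysed here.

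Depth was uneven. The ChIP libraries held 13886693 and 15798998 tags for ZmCENH3, 22489151 and 23205886 for LoCENH3, and 9016364 and 13280742 for AtCENH3. Both libraries of a variant were called against the same control, of 9825449, 12730185 and 9239707 tags in the same order of variants, and the larger of ChIP and control was scaled to the smaller. The headers do not name it as an antibody control or an input, so fold enrichments and control backgrounds are relative to an unnamed control. The lists held 401 and 408 peaks for ZmCENH3, 294 and 308 for LoCENH3, and 315 and 255 for AtCENH3 on the 5 chromosomes. Signal under the cutoff is not in the lists.

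In the deposited lists chromosome 5 carried more CENH3 peaks in ZmCENH3 seedlings, and fewer in LoCENH3 seedlings, than in the wild type. The chromosome had 165 and 181 peaks in the ZmCENH3 libraries, 46 and 73 in the LoCENH3 libraries, and 111 and 100 in the AtCENH3 libraries. These peaks covered 81.8 and 90.0 kb in ZmCENH3, 17.1 and 30.1 kb in LoCENH3, and 49.9 and 44.2 kb in AtCENH3. Both ZmCENH3 libraries lay above, and both LoCENH3 libraries below, the AtCENH3 libraries, and no ranges overlapped. The means were 85.9 ± 5.82 kb in ZmCENH3, 23.6 ± 9.22 kb in LoCENH3 and 47.1 ± 4.02 kb in AtCENH3 (SD, n = 2 libraries each). The log2 ratio was 0.87 for ZmCENH3 over AtCENH3, −0.998 for LoCENH3 over AtCENH3 and 1.87 for ZmCENH3 over LoCENH3, each with an exact permutation p of 0.333. With every list shortened to its best peaks by −log10 q, as many as the shortest list had, the ratios were 0.41, −1.02 and 1.43 in the same order. With these shortened lists, chromosome 5 had 95 and 93 peaks in ZmCENH3, 40 and 64 in LoCENH3, and 85 and 100 in AtCENH3. By peak count ZmCENH3 and AtCENH3 then overlapped. Without LoCENH3 replicate 1 the ratio of LoCENH3 over AtCENH3 was −0.65.

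As a share of all bases under peaks, chromosome 5 held 44.6 and 46.0% in ZmCENH3, 13.1 and 21.5% in LoCENH3, and 38.4 and 40.0% in AtCENH3. The difference was 6.10 percentage points for ZmCENH3 minus AtCENH3 and −21.9 points for LoCENH3 minus AtCENH3, with no overlap between libraries and an exact permutation p of 0.333 for each. With lists of equal length these differences were 2.52 and −21.2 points. LoCENH3 also had a long run of peaks on chromosome 4. With chromosome 4 left out of the total, the share was 53.1 and 54.6% in ZmCENH3, 38.1 and 46.2% in LoCENH3, and 46.1 and 48.9% in AtCENH3. The LoCENH3 and AtCENH3 libraries then overlapped, and their difference was −5.34 points.

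Most of the chromosome's peaks lay in 1 main group, from 11590593 to 12168639 (TAIR10, 1-based), a span of 578 kb. Groups were formed by joining the peaks of all 6 lists over gaps of up to 200 kb, and gaps of up to 100 kb gave the same bounds. The main group held 140 and 159 peaks in ZmCENH3, 39 and 62 in LoCENH3, and 94 and 84 in AtCENH3. It held 87.3 and 87.7% of the bases under chromosome 5 peaks in ZmCENH3, 88.5 and 88.8% in LoCENH3, and 84.9 and 85.1% in AtCENH3. The share therefore stood within a few points in all 6 libraries, although the covered length did not.

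The main group was patchy rather than filled. Peaks covered 12.3 and 13.6% of its span in ZmCENH3, 2.61 and 4.62% in LoCENH3, and 7.33 and 6.51% in AtCENH3. Of its 58 bins of 10 kb, 40 and 44 held a peak in ZmCENH3, 19 and 24 in LoCENH3, and 29 and 26 in AtCENH3. No library had a peak in 13 bins, and all 6 libraries had one in 17. The stretches over 20 kb without a peak in any library ran from 11590789 to 11651211, from 11991293 to 12016324 and from 12067604 to 12147499.

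**Figure D1:**
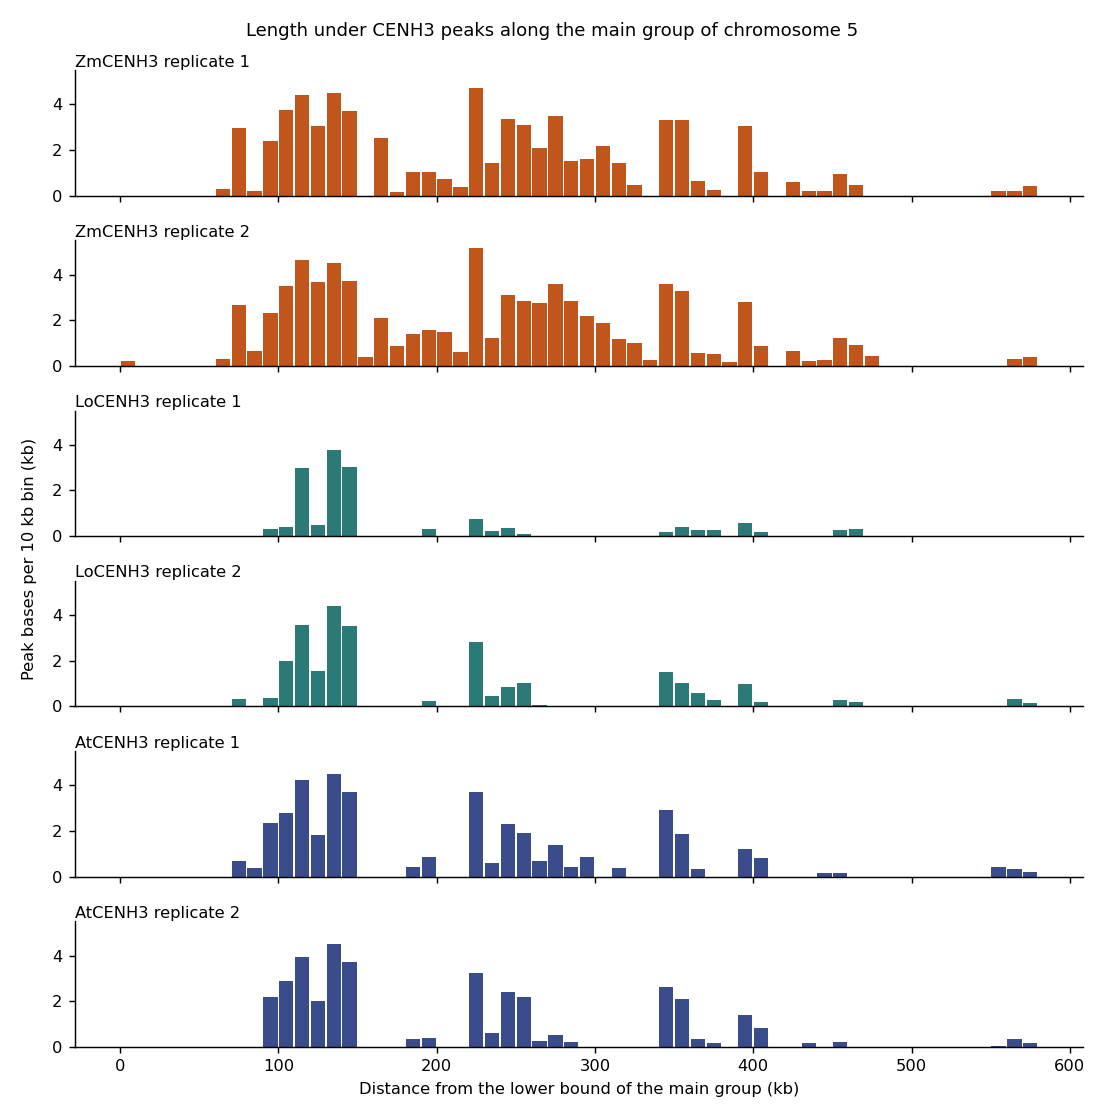
Bases under peaks (kb) in each 10 kb bin of the main group, by library, against the distance (kb) from 11.59 Mb; each bar is 1 bin. The bars that start at 110, 130 and 140 kb are tall in all 6 libraries, while the bars beyond 150 kb are tall and dense in ZmCENH3, sparse in LoCENH3 and in between in AtCENH3.

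The variants differed in the number of bases under peaks in most bins of the chromosome. Across the bins of chromosome 5 with a peak in ZmCENH3 or AtCENH3, both ZmCENH3 libraries had more bases than both AtCENH3 libraries in 40 of 53, against a background of 51.8%, the share of such bins over all 5 chromosomes. ZmCENH3 lay below AtCENH3 in 4 of the 53 (background 11%). LoCENH3 lay above AtCENH3 in 3 of 41 bins (background 15.3%) and below it in 25 (background 46%). ZmCENH3 lay above LoCENH3 in 41 of 53 bins (background 61.1%) and below it in 0 (background 8.87%). The backgrounds that involve LoCENH3 include its long run of peaks on chromosome 4, and they are not given without that chromosome. With bins as units these are descriptions, and lists of equal length lowered the count of ZmCENH3 above AtCENH3 to 23. Without LoCENH3 replicate 2 LoCENH3 lay above AtCENH3 in 5 bins and ZmCENH3 below LoCENH3 in 2, and without LoCENH3 replicate 1 the last count was 1.

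The bin with the largest excess of ZmCENH3 over AtCENH3 was 11.86 to 11.87 Mb. It held 3506 and 3598 bases under peaks in ZmCENH3, 0 and 0 in LoCENH3, and 1385 and 500 in AtCENH3. The bin from 11.66 to 11.67 Mb held 2943 and 2662 bases in ZmCENH3, 0 and 304 in LoCENH3, and 690 and 0 in AtCENH3. The bins from 11.75 to 11.76 Mb and from 11.89 to 11.90 Mb had peaks in ZmCENH3 libraries alone. The first of these held 2532 and 2117 bases and the second 2174 and 1873. Of the 53 bins of the chromosome with a peak of either variant, 10 had one in both ZmCENH3 libraries and in no AtCENH3 library (background 15.7%), and 1 had the reverse (background 2.62%). These counts were near the background, and the ZmCENH3 lists were the longer ones on all 5 chromosomes.

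The bins in which LoCENH3 stood furthest below AtCENH3 were spread over the group. The bin from 11.93 to 11.94 Mb held 182 and 1501 bases in LoCENH3, against 2920 and 2627 in AtCENH3. The bin from 11.68 to 11.69 Mb held 322 and 359 bases in LoCENH3, against 2335 and 2181 in AtCENH3. In both bins every LoCENH3 library was below every AtCENH3 library. The largest excess of LoCENH3 was small, in the bin from 12.05 to 12.06 Mb, with 290 and 189 bases in LoCENH3 and 0 and 0 in AtCENH3. The ZmCENH3 libraries had 446 and 903 bases there.

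Between the peaks of LoCENH3 and AtCENH3, 6 stretches of the group were over 20 kb long, and 4 of them held peaks of both ZmCENH3 libraries that lay wholly within. The stretch from 11736280 to 11770703 (34.4 kb) held 3 and 7 such peaks, which covered 2.70 and 3.39 kb. The stretch from 11783748 to 11810259 (26.5 kb) held 6 and 9, which covered 1.36 and 2.35 kb. The other 4 stretches were sparser. The stretch from 11906045 to 11935215 held 1 and 4 peaks within, and the stretch from 11991290 to 12026775 held 2 and 2. Those from 11961502 to 11985819 and from 12058171 to 12147499 held 0 in replicate 1, against 2 and 1 in replicate 2. The pile-up of these peaks, the number of extended ChIP tags over the summit after scaling, was at most 86.4. Peaks of ZmCENH3 that ran over the edge of a stretch were higher in 3 of the stretches, with up to 114, 340 and 166 in replicate 2. The stretches were chosen as free of LoCENH3 and AtCENH3 peaks, so any peak within had to be of ZmCENH3. The reverse count, the same count on other chromosomes and a repeat with lists of equal length were not made.

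The ChIP pile-up was concentrated in a short piece of the main group, where the control background was also high. Regions were made by merging the overlapping peaks of all lists, which gave 207 on chromosome 5, and 14 of them had a pile-up over 1000 in every library. This threshold was chosen after the values were seen. The lowest value inside it was 1973 in AtCENH3 replicate 2, at 11733007 to 11733248, and the highest outside it was 869 in LoCENH3 replicate 2, at 11710132 to 11710409. The 14 high sites lay between 11701857 and 11736279, a span of 34.4 kb or 5.96% of the main group. The whole main group held 99.6 to 99.9% of the pile-up summed over the chromosome's peaks, each at its summit, in every library. The 10 highest peaks alone held 93.9 and 93.8% in ZmCENH3, 93.5 and 94.2% in LoCENH3, and 95.2 and 94.3% in AtCENH3, with ZmCENH3 and LoCENH3 overlapping each other. The peaks within the 34.4 kb span held 98.0 and 97.8% of the summed pile-up of the chromosome in ZmCENH3, 99.4 and 99.0% in LoCENH3, and 99.2 and 99.2% in AtCENH3. The peaks of the chromosome outside the span had a median pile-up of 53.1 and 47.9 in ZmCENH3, 104 and 95.7 in LoCENH3, and 36 and 36.2 in AtCENH3. The control background at their summits, in scaled tags, was solved from pile-up and fold enrichment. Its median was 13.2 and 12.9 in ZmCENH3, 34 and 37 in LoCENH3, and 5.85 and 7 in AtCENH3. At the highest site it was 3935 and 3935 in ZmCENH3, 10925 and 10925 in LoCENH3, and 3146 and 3173 in AtCENH3. The shares of pile-up were not corrected for the control.

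**Figure D2:**
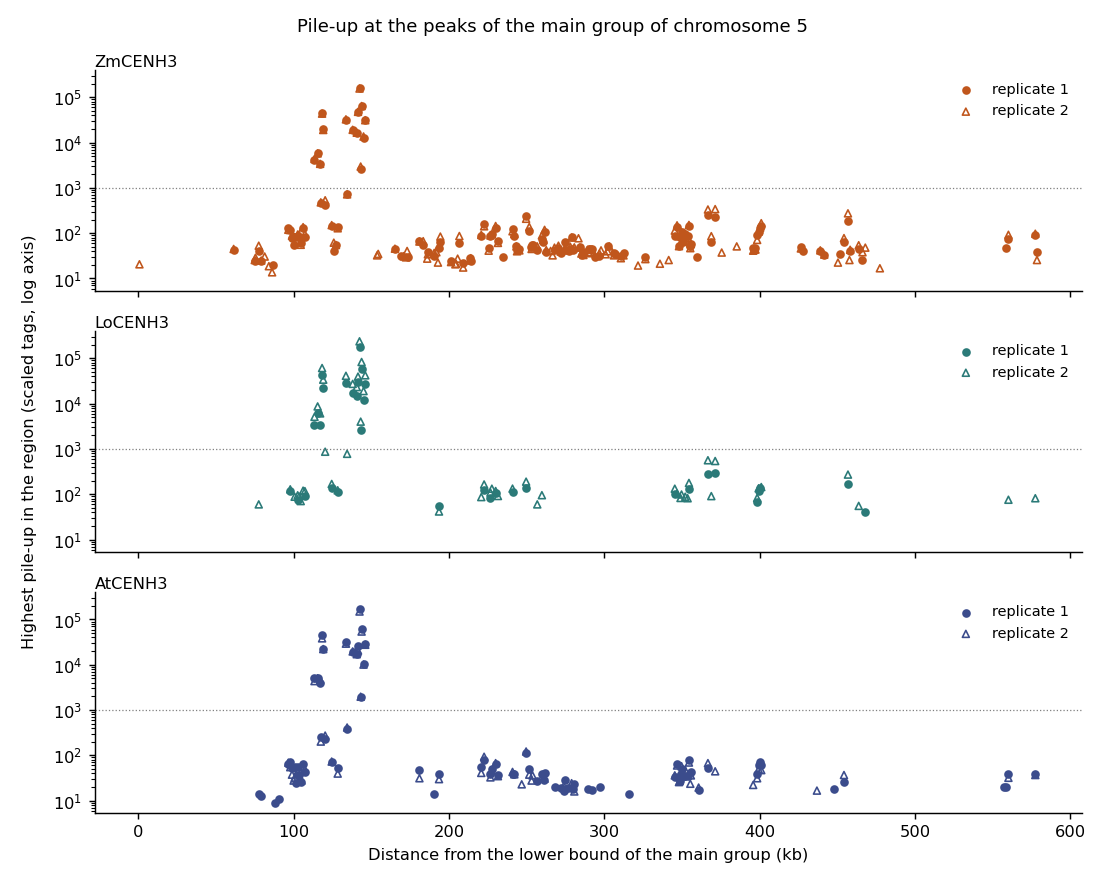
Highest pile-up in each merged region of the main group (scaled tags, log axis) against the distance (kb) from 11.59 Mb, by variant, with 1 symbol per replicate; the dotted line is at 1000. All points above the line lie in the same 34.4 kb in every variant, and the other points lie below 1000.

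The span was chosen as the place where every library had a high pile-up, so each library had to have peaks in it, and the covered lengths inside and outside it are given as a description. Peaks covered 15.7 and 16.6 kb of the span in ZmCENH3, 10.3 and 13.1 kb in LoCENH3, and 14.2 and 14.1 kb in AtCENH3. In the rest of the main group they covered 55.7 and 62.3 kb in ZmCENH3, 4.80 and 13.6 kb in LoCENH3, and 28.2 and 23.5 kb in AtCENH3. The groups did not overlap in either piece. For ZmCENH3 over AtCENH3 the log2 ratio was 0.18 within the span and 1.19 outside it, and for LoCENH3 over AtCENH3 it was −0.28 within and −1.49 outside.

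**Figure D3:**
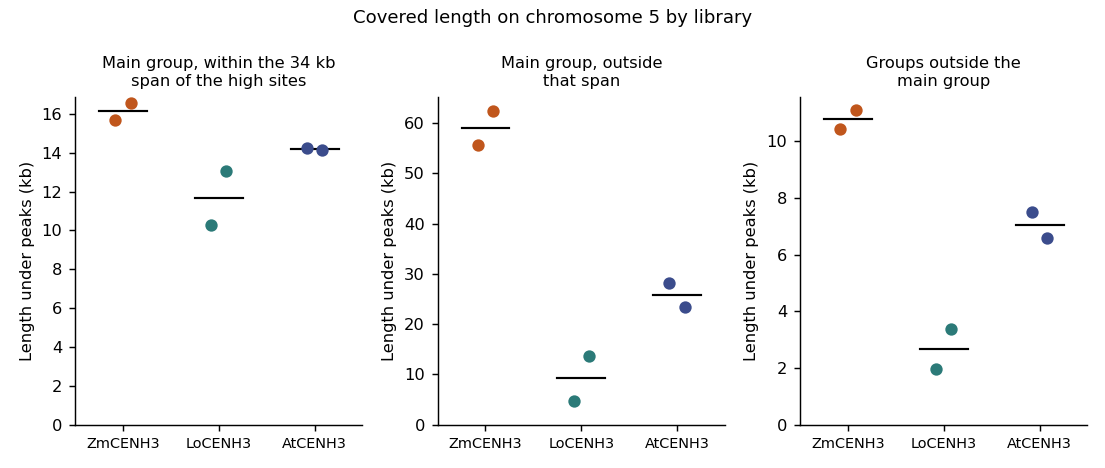
Length under peaks (kb) on chromosome 5 in each library (points) with the mean of the 2 libraries (line), for the span of the high sites, the rest of the main group and the other groups. Within the span the points lie between 10.3 and 16.6 kb, and outside it they lie between 4.80 and 62.3 kb.

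The highest site was at 11732007 to 11732761. Its pile-up was 159511 and 155659 in ZmCENH3, 174622 and 237407 in LoCENH3, and 167630 and 149831 in AtCENH3. These are 1.62 and 1.58% of the scaled tags in ZmCENH3, 1.37 and 1.86% in LoCENH3, and 1.86 and 1.62% in AtCENH3. By this measure the AtCENH3 libraries overlapped those of each other variant. With each region counted at its highest pile-up, the site held 33.6 and 33.1% of the sum over the regions of chromosome 5 in ZmCENH3, 38.9 and 37.1% in LoCENH3, and 37.4 and 36.7% in AtCENH3. The ZmCENH3 share was below that of both other variants, whose libraries overlapped each other.

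The site next to it, at 11731034 to 11731790, set ZmCENH3 apart. It held 10.1 and 10.1% of the same sum in ZmCENH3, 6.64 and 6.18% in LoCENH3, and 5.80 and 5.04% in AtCENH3. The difference was 4.66 points for ZmCENH3 minus AtCENH3 and 0.99 points for LoCENH3 minus AtCENH3, and no libraries overlapped. Its pile-up was 47710 and 47623 in ZmCENH3, 29788 and 39527 in LoCENH3, and 26004 and 20616 in AtCENH3. In percent of scaled tags it was 0.486 and 0.485 in ZmCENH3, 0.234 and 0.310 in LoCENH3, and 0.288 and 0.223 in AtCENH3. ZmCENH3 thus stood above both other variants on either scale, and by percent of tags LoCENH3 and AtCENH3 overlapped.

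The remaining high sites kept much the same order in all libraries. The site at 11733500 to 11733939 was the second highest everywhere, with 13.7 and 13.6% of the summed pile-up in ZmCENH3, 13.1 and 13.0% in LoCENH3, and 13.5 and 13.2% in AtCENH3. The site at 11708109 to 11708456 held 9.45 and 9.22% in ZmCENH3, 9.75 and 9.56% in LoCENH3, and 9.98 and 9.37% in AtCENH3, with ZmCENH3 and AtCENH3 overlapping. The site at 11708872 to 11709168 was lower in ZmCENH3, with 4.13 and 4.02% there, 5.03 and 5.29% in LoCENH3, and 5.03 and 5.43% in AtCENH3. At the site of 11723446 to 11723830 LoCENH3 held 6.41 and 6.44% and AtCENH3 7.05 and 7.16%. The lowest of the 14, at 11733007 to 11733248, held between 0.441 and 0.627%. Across the 14 sites the shares of 2 libraries had a Pearson r of 0.997 to 1.000 in the 3 pairs of the same variant and 0.973 to 0.993 in the 12 pairs of different variants. This is a description over sites that share a library, a neighbourhood and, within a variant, a control. The highest site, with 33.1 to 38.9% of the sum, weighs most in r. Between 2 libraries of a variant, the largest log2 ratio of shares at a site was 0.18 to 0.41. Between libraries of different variants it was 0.42 to 1.00.

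**Figure D4:**
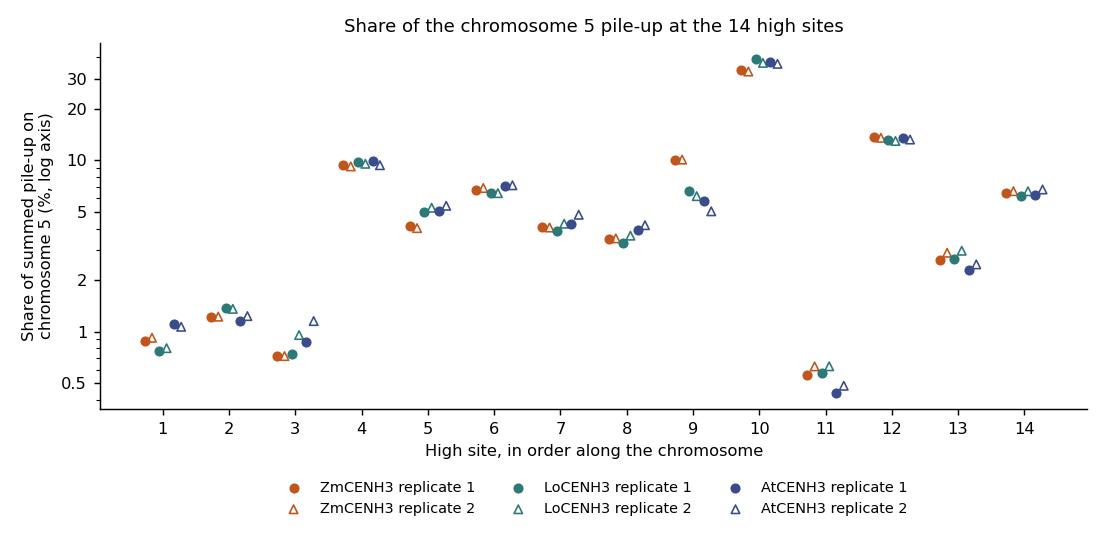
Share of the summed pile-up of chromosome 5 (%, log axis) at the 14 high sites in their order along the chromosome, by library; filled circles are replicate 1 and open triangles replicate 2. Site 10 is the highest in every library, and at site 9 the ZmCENH3 points, at 10.1%, stand above those of LoCENH3 and AtCENH3.

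Of the 34 regions with a peak in all 6 libraries, the share of pile-up was higher in both ZmCENH3 than in both AtCENH3 libraries in 24 (background 65.7%) and lower in 7 (background 22.5%). It was higher in LoCENH3 than in AtCENH3 in 22 (background 58.8%) and lower in 4 (background 11.8%). It was higher in ZmCENH3 than in LoCENH3 in 14 (background 38.2%) and lower in 5 (background 22.5%). These counts were near the background of all 5 chromosomes. All 7 regions with a lower ZmCENH3 share were among the high sites, of which 4 had a higher one.

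The summits of the high sites coincided closely. In all 6 libraries they lay within 10 bp of each other at 9 of the 14 sites and within 50 bp at 13. At 11733500 to 11733939 the summit was base 11733699 in every library. The exception was the long site at 11726103 to 11729861, where the summits were spread over 670 bp. The ZmCENH3 summits of that site were at 11729189 and 11729270, the LoCENH3 summits at 11728606 and 11728600, and both AtCENH3 summits at 11728600. The median spread was 5.5 bp over the high sites and 58.5 bp over the 20 other regions found in all 6 libraries, 9 of which were within 50 bp. The higher sites also had more tags with which to place a summit.

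Peak edges varied more than summits. Bases under peaks were fewer in both LoCENH3 than in both AtCENH3 libraries at 12 of the 14 high sites (background 83.3%) and more at 0 (background 2.94%). They were more in both ZmCENH3 than in both LoCENH3 libraries at 12 (background 85.3%) and fewer at 0 (background 0%). These counts were near the background, so the shorter LoCENH3 peaks were not particular to the high sites. ZmCENH3 had more than AtCENH3 at 4 sites (background 45.1%) and fewer at 7 (background 30.4%). The LoCENH3 edges lay inside those of AtCENH3, by the mean of 2 libraries, at 14 of 14 starts and 12 of 14 ends. No background is given for the edges, so these counts do not show a trait particular to the high sites. The means can also hide an overlap of libraries. In LoCENH3 replicate 2, 1 peak ran from 11706890 to 11707128. The AtCENH3 peaks there ran from 11706891 to 11707125 and 11707127, within it at both edges. The median shift of the LoCENH3 edges was 21 bp at the start and −10.3 bp at the end. The ZmCENH3 edges were shifted by 1.25 and −1.25 bp.

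The control differed between the variants at these sites about as often as at the regions of all 5 chromosomes. Both libraries of a variant shared 1 control, so the counts below set 1 control against 1 control and hold no replication. The control background at the summit, solved from pile-up and fold enrichment and given per 1000000 scaled tags, was higher in both LoCENH3 than in both AtCENH3 libraries at 14 of 14 sites (background 99%) and lower at 0 (background 0.98%). It was higher in ZmCENH3 than in AtCENH3 at 13 of 14 (background 95.1%) and lower at 1 (background 2.94%), and it was lower in ZmCENH3 than in LoCENH3 at 12 (background 78.4%) and higher at 2 (background 14.7%). With each count near its background, these differences were not particular to the high sites. At the highest site it was 400 and 400 in ZmCENH3, 858 and 858 in LoCENH3, and 349 and 343 in AtCENH3. The fold enrichment there was 40.5 and 39.5 in ZmCENH3, 16.0 and 21.7 in LoCENH3, and 53.3 and 47.2 in AtCENH3. At 11731034 to 11731790 the control background was 144 and 142 in ZmCENH3, 302 and 293 in LoCENH3, and 102 and 100 in AtCENH3. The part of the control in the called lengths and edges was not tested. Over the peaks of the chromosome outside the 34.4 kb span the median fold was 3.89 and 3.69 in ZmCENH3, 2.79 and 2.83 in LoCENH3, and 4.75 and 4.47 in AtCENH3.

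The main group was lopsided, with more peak bases below its middle at 11.88 Mb than above. The part above held 28.8 and 28.8% of the bases in ZmCENH3, 15.9 and 20.8% in LoCENH3, and 22.8 and 22.3% in AtCENH3. The libraries did not overlap, with differences of 6.23 points for ZmCENH3 minus AtCENH3 and −4.20 points for LoCENH3 minus AtCENH3 and an exact permutation p of 0.333 for each. With lists of equal length ZmCENH3 minus AtCENH3 was 2.09 points and their libraries overlapped (exact permutation p = 0.667), while LoCENH3 minus AtCENH3 was −6.71 points. LoCENH3 minus AtCENH3 was −1.78 points without LoCENH3 replicate 1 and −6.62 points without LoCENH3 replicate 2. The high sites lay wholly below the middle. With peaks of pile-up over 1000 left out, the part above held 34.5 and 34.1% in ZmCENH3, 45.4 and 35.7% in LoCENH3, and 31.6 and 32.2% in AtCENH3. LoCENH3 was then above AtCENH3 by 8.62 points, so its order depended on the high sites.

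The edges of the group were set by single low peaks. The first peak started at 11651217 and 11590593 in ZmCENH3, at 11687574 and 11667391 in LoCENH3, and at 11667191 and 11686048 in AtCENH3. The last peak ended at 12168639 and 12168588 in ZmCENH3, at 12058170 and 12167529 in LoCENH3, and at 12167521 in both AtCENH3 libraries. The ZmCENH3 libraries reached furthest at both edges, at the upper one by 1.08 kb over LoCENH3 when LoCENH3 replicate 1 was left out. LoCENH3 and AtCENH3 overlapped at both edges, with an exact permutation p of 0.667 at the lower and 1 at the upper. The difference of LoCENH3 minus AtCENH3 at the upper edge was −54.7 kb, and without LoCENH3 replicate 1 it was 0.008 kb. At the lower edge it was 0.863 kb, and −9.23 kb without LoCENH3 replicate 1 or −8.57 kb without AtCENH3 replicate 1. ZmCENH3 replicate 2 set the lower bound of the group with a peak that no other library had, and the difference in lower edge of ZmCENH3 minus AtCENH3 was −55.7 kb with that library and −25.4 kb without it.

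Peaks were short, and their median length was 334 and 343 bp in ZmCENH3, 265 and 310 bp in LoCENH3, and 314 and 329 bp in AtCENH3. The difference was 17.0 bp for ZmCENH3 minus AtCENH3 and −34.0 bp for LoCENH3 minus AtCENH3, each with an exact permutation p of 0.333. Single libraries moved both differences. LoCENH3 minus AtCENH3 was −11.5 bp without LoCENH3 replicate 1 and −56.5 bp without LoCENH3 replicate 2, and ZmCENH3 minus AtCENH3 was 9.5 bp without AtCENH3 replicate 1. With peaks of a −log10 q of at least 10 alone, ZmCENH3 minus AtCENH3 was −0.75 bp, and with lists of equal length it was 91.5 bp. The shortest peak was 165 bp in each list, the length to which tags were extended. The longest was the site at 11726103 to 11729861 in 5 of the lists, with 3751 and 3759 bp in ZmCENH3, 3705 bp in LoCENH3 replicate 2, and 3715 and 3713 bp in AtCENH3. In LoCENH3 replicate 1 it was called as separate peaks. Peaks over 1000 bp numbered 15 and 15 in ZmCENH3, 1 and 2 in LoCENH3, and 8 and 9 in AtCENH3.

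The median spacing of neighbouring summits in the main group was 1.39 and 1.38 kb in ZmCENH3, 3.09 and 1.54 kb in LoCENH3, and 1.23 and 1.16 kb in AtCENH3. The AtCENH3 libraries had the closest summits by this measure, and the libraries did not overlap (exact permutation p = 0.333 for each of the 3 comparisons). LoCENH3 replicate 1 set much of the LoCENH3 value, since LoCENH3 minus AtCENH3 was 1.12 kb with both libraries and 0.342 kb without it. With lists of equal length ZmCENH3 and LoCENH3 overlapped, and without peaks of pile-up over 1000 ZmCENH3 and AtCENH3 overlapped. The mean in place of the median turned the order of ZmCENH3 and AtCENH3 round, with a difference of −1.90 kb against 0.20 kb by the median, as did joining peaks over 1000 bp, with −1.46 kb. Spacings under 1 kb made up 32.4 and 31.0% in ZmCENH3, 26.3 and 23.0% in LoCENH3, and 34.4 and 42.2% in AtCENH3.

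**Figure D5:**
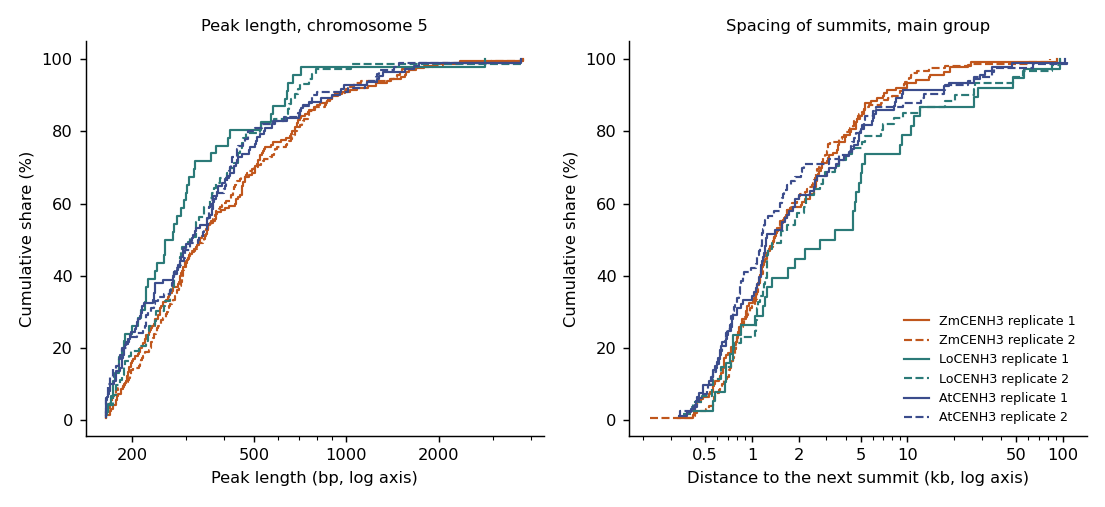
Cumulative share (%) of peak lengths on chromosome 5 (bp, log axis) and of distances between neighbouring summits in the main group (kb, log axis); solid lines are replicate 1 and dashed lines replicate 2. LoCENH3 replicate 1, with the shortest median length of 265 bp and the widest median spacing of 3.09 kb, stands apart from the other libraries.

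The other groups of chromosome 5 were low and lay on both sides of the main group. The group from 11217155 to 11331822 held 13 and 12 peaks in ZmCENH3, 3 and 8 in LoCENH3, and 8 and 9 in AtCENH3. They covered 6.24 and 6.72 kb in ZmCENH3, 1.07 and 2.60 kb in LoCENH3, and 5.01 and 4.49 kb in AtCENH3. The order of the variants was that of the main group, with a log2 ratio of 0.45 for ZmCENH3 over AtCENH3 and −1.37 for LoCENH3 over AtCENH3. The group from 13261451 to 13271735 lay over 1 Mb above the main group and was compact. It covered 3.99 and 4.39 kb in ZmCENH3, 0.524 and 0.772 kb in LoCENH3, and 2.01 and 1.25 kb in AtCENH3. The log2 ratio was 1.36 for ZmCENH3 over AtCENH3 and −1.33 for LoCENH3 over AtCENH3. In both groups the libraries of the 3 variants did not overlap, and the highest pile-up was 171.

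The last outer group went the other way. From 10245879 to 10251754 each AtCENH3 library had 2 peaks, which covered 0.501 and 0.490 kb, while ZmCENH3 had 1 peak of 0.190 kb in replicate 1 and LoCENH3 had none. Their pile-up was 17.4 to 26.9. Single peaks stood at 1674359 to 1674715 in AtCENH3 replicate 2 and, in LoCENH3 replicate 1, at 6604648 to 6604832 and 17203298 to 17203473. None of the 3 was called in the other library of its variant.

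Regions called in LoCENH3 were mostly called in the other variants too. Of the 207 merged regions, 34 had a peak in all 6 libraries (16.4%, background 15.4%), and 30 of these lay in the main group. Without LoCENH3 replicate 1, which had the fewest peaks, 56 regions had a peak in every library. All 37 regions called in both LoCENH3 libraries were called in both ZmCENH3 libraries (background 58.2%), and 34 of the 37 in both AtCENH3 libraries (background 54.5%). Of the 152 such LoCENH3 regions on chromosomes 1 to 4, 73 were called in both ZmCENH3 libraries. Regions of both LoCENH3 libraries and no other numbered 77 on chromosomes 1 to 4 but 1 on chromosomes 1 to 3. The backgrounds of 58.2% and 54.5% were thus lowered mostly by chromosome 4, and the overlap was not shown to be particular to chromosome 5. Of the 76 regions called in both AtCENH3 libraries, 70 were called in both ZmCENH3 libraries (background 90%) and 34 in both LoCENH3 libraries (background 49%). Of the 139 regions called in both ZmCENH3 libraries, 70 were called in both AtCENH3 libraries (background 56.6%) and 37 in both LoCENH3 libraries (background 32.9%). The shares of AtCENH3 and ZmCENH3 regions were near the background, and the ZmCENH3 lists were the longest.

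Regions of a single variant, with a peak in both of its libraries and in no other library, were mostly of ZmCENH3. There were 47 of ZmCENH3 (22.7% of the 207, background 14.4%), 0 of LoCENH3 (background 11.6%) and 4 of AtCENH3 (1.93%, background 1.82%). On chromosomes 1 to 4 the counts were 48, 77 and 8 of 454, and without chromosome 4 they were 35, 1 and 6 of 229. With lists of equal length the ZmCENH3 count on chromosome 5 was 11, and without ZmCENH3 replicate 1 it was 82. The AtCENH3 count was 8 without AtCENH3 replicate 1 and 13 without replicate 2, and the LoCENH3 count was 2 without LoCENH3 replicate 2.

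The ZmCENH3 regions were low, with a pile-up of 17.4 to 86.4, but some were long. The longest, at 11753969 to 11756413, was 2445 bp and had a pile-up of 44.6 and 45.4 and a fold enrichment of 5.82 and 5.16. The next, at 11859667 to 11861234, was 1568 bp with a pile-up of 46.7 and 52.9. Those at 11891373 to 11892773, 11716634 to 11717769 and 11901835 to 11902840 were 1401, 1136 and 1006 bp. The 4 AtCENH3 regions were 183 to 415 bp and had a pile-up of 16 to 27.1. They lay at 11863637 to 11864051, 10251454 to 10251754, 11950605 to 11950792 and 11938417 to 11938599. The lowest pile-up called anywhere on the chromosome was 19.8 and 13.7 in ZmCENH3, 28.3 and 41.7 in LoCENH3, and 9 and 16 in AtCENH3. By pile-up, no peak as low as the AtCENH3 regions was called in either LoCENH3 library. The pile-up was scaled to unlike totals, 12730185 tags in LoCENH3 and 9016364 and 9239707 in AtCENH3. In percent of scaled tags the lowest peaks were 2.22e-04 and 3.27e-04 in LoCENH3 and 9.98e-05 and 1.73e-04 in AtCENH3. The AtCENH3 regions were not compared on that scale.

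None of the 14 high sites overlapped a gene of the RefSeq table, and 128 of the 207 regions overlapped none. The main group held 105 genes of the table, 88 of them pseudogenes. The chromosome had 8417 genes, 806 of them pseudogenes. Of the 8417, 29 had a peak in both libraries of at least 1 variant, and 27 of the 29 were pseudogenes. Such genes numbered 28 in ZmCENH3, 6 in LoCENH3 and 15 in AtCENH3, in the order of the peak counts. These counts were not made over all 5 chromosomes or with lists of equal length. The other 2 of the 29 were the microRNA genes MIR854b (AT5G04935) and MIR854e (AT5G05005). MIR854b, in an outer group, was covered over its whole 221 bp in 5 libraries, all but LoCENH3 replicate 1. MIR854e had peaks in ZmCENH3 alone, over 210 and 221 bp.

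The genes under peaks of all 6 libraries were the 6 pseudogenes AT5G32125, AT5G31804, AT5G31736, AT5G31999, AT5G31753 and AT5G32161. AT5G31804 reached into the span of the high sites and had 1508 and 1966 bases under peaks in ZmCENH3, 189 and 198 in LoCENH3, and 442 and 371 in AtCENH3. AT5G32125 had 1194 and 1447 bases in ZmCENH3, 88 and 802 in LoCENH3, and 915 and 748 in AtCENH3. In both genes ZmCENH3 had the most, and LoCENH3 and AtCENH3 overlapped at AT5G32125. Outside the main group, AT5G29975 had 3290 and 3414 bases in ZmCENH3, 0 and 744 in LoCENH3, and 2579 and 2190 in AtCENH3. AT5G34985 had 2344 and 2579 bases in ZmCENH3, 0 and 0 in LoCENH3, and 637 and 0 in AtCENH3. Of 6 genes of CENH3 and kinetochore proteins, 2 were on chromosome 5, AT5G02520 (KNL2, which helps to load CENH3) and AT5G35520 (MIS12, a kinetochore subunit). Neither had a peak.

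In all, 10 measures were compared between 3 pairs of variants, and in 26 of the 30 comparisons the libraries did not overlap. After Benjamini-Hochberg adjustment over these 30 exact permutation tests the smallest p was 0.385.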

How the data were processed

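Per the file headers, the authors made each list from 1 library, using version 2.1.0.20140616 of the peak caller MACS. Tags were extended to 165 bp, duplicate tags were all kept and the q-value cutoff was 0.05. The submitters' processing notes name BWA and the build TAIR10. The headers name no kind of control sample. No source used here gives the treatment of tags that match several places. The deposited pile-up is a coverage signal, counted in extended ChIP tags over the summit and scaled. The deposited −log10 p-value and the deposited −log10 q-value came from the peak caller. The deposited fold enrichment is a ratio, read as (pile-up + 1) / (background + 1) to solve the background. Positions and lengths were used as the authors deposited them. The effective genome size was set to 2700000000 bases, per the file headers.

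Chromosome 5 peaks were merged, binned and joined into groups with Python 3.11.15, numpy 2.4.6 and pandas 2.3.3, and drawn with matplotlib 3.10.9. An overlap of 1 bp counted. The interval code was tested on simulated data, where 0 of 200 sets gave other lengths than counting base by base. Tests were exact two-sided permutations over libraries with Benjamini-Hochberg adjustment. Backgrounds were the same counts over chromosomes 1 to 5. The gene table was RefSeq TAIR10.1, assumed to have the numbering of TAIR10. Precision is limited by 2 libraries per variant, 9016364 to 23205886 ChIP tags deep. Named were all outer groups, the 5 highest, longest or most different regions and bins of each comparison, given in part, and genes by number of libraries and bases. Members, measures and lists were chosen with earlier results of these data known. Same-numbered libraries were checked for pairing. Alternatives were a stricter q, lists of equal length, joined peaks, other gaps, bins, splits and averages, each library left out, the replicate number as a block and, chosen after seeing the data, peaks of pile-up over 1000 left out.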

Additional observations from a re-analysis of the deposited data

How the results depend on the processing

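Of 168 differences recomputed under other settings 155 kept their direction, and of 52 counts 40 stayed within 1.5 times. The 168 include values that could not change direction. The replicate block repeats every difference but those of covered length by arithmetic, and gaps of up to 100 kb gave the same bounds. Covered length kept its order in all settings. A −log10 q of at least 10 turned the median length of ZmCENH3 minus AtCENH3 to −0.75 bp, the upper edge of LoCENH3 minus AtCENH3 to 1.30 kb and the share of the 10 highest peaks of ZmCENH3 minus LoCENH3 to 0.29 points. It also gave 1 bin of ZmCENH3 below AtCENH3, 19 ZmCENH3 regions and 0 AtCENH3 regions. Lists of equal length gave a lower edge of −8.57 kb for LoCENH3 minus AtCENH3, 0.56 points for the 10 highest peaks of ZmCENH3 minus LoCENH3, 23 bins of ZmCENH3 above AtCENH3 and 11 ZmCENH3 regions. Joining peaks over 1000 bp gave −1.46 kb for the spacing and 0.0071 points for the main group's share of pile-up (ZmCENH3 minus AtCENH3), 23 ZmCENH3 regions, 1 AtCENH3 region and 17 regions of all libraries. The share above 11.88 Mb of LoCENH3 minus AtCENH3 was 0.13 points by summed pile-up and 8.62 points without peaks over 1000, where ZmCENH3 minus LoCENH3 was −6.23 points. Mean spacing gave −1.90 kb for ZmCENH3 minus AtCENH3. For the 10 highest peaks, fold enrichment gave 4.64 points for LoCENH3 minus AtCENH3, and the 5 highest gave 0.45 points for ZmCENH3 minus LoCENH3. Bins of 5 kb gave 62 with ZmCENH3 above LoCENH3. Bins of 20 kb gave 24, with 24 for ZmCENH3 above and 1 for ZmCENH3 below AtCENH3. The cause was not tested.

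Leaving out 1 library at a time changed the direction of 5 of 120 differences, all of LoCENH3. LoCENH3 minus AtCENH3 ran from −9.23 to 11.0 kb at the lower edge, from −109 to 0.008 kb at the upper edge and from −0.018 to 0.038 points for the main group's share of pile-up. ZmCENH3 minus LoCENH3 ran from −0.37 to 0.32 points for the 10 highest peaks. Regions of 1 variant ran from 47 to 82 for ZmCENH3, 0 to 2 for LoCENH3 and 4 to 13 for AtCENH3, and those of all libraries from 34 to 56. Bins of ZmCENH3 below LoCENH3 ran from 0 to 2 and of LoCENH3 above AtCENH3 from 3 to 5.

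Deviations from the variant means over 221 bins had a correlation of 0.026, −0.079 and −0.026 between same-numbered libraries. A shift common to all bins drops out of a correlation, so these values cannot show whether same-numbered libraries shared a batch. With the replicate block the log2 ratio of covered length was 0.87 for ZmCENH3 over AtCENH3, −1.05 for LoCENH3 over AtCENH3 and 1.92 for ZmCENH3 over LoCENH3. No direction changed, but for every measure other than covered length the block gives the same difference by arithmetic. The smallest p of the permutation within replicate blocks was 0.5. The block gave no value for the region counts, since presence in both libraries has no pairing.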
